A study of Pyrus pyrifolia with 2 samples.

Results

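Annotated genes with many transcript isoforms were described in wounded sand pear tissue. They were chosen from the transcript tables deposited for both libraries by a rule on structure: a locus had to hold 4 or more transcripts, among them transcripts of exactly 1 gene of the annotation. Of 45905 loci, 341 met it. The number of transcripts was 4 at 232 of these loci, 5 at 69, 6 at 22, 7 at 10 and 8 at 6, while 1 locus had 10 and 1 had 11. Shares were described at the 310 loci whose transcripts summed to 5 or more FPKM (read fragments on a transcript, divided by its length and by the depth of its library) in each library. The rule on structure used no levels, shares or differences between libraries. The floor did use the summed FPKM of each library, and it leaves out loci that are low in 1 of them. The transcripts themselves were assembled with reads, so a locus with more reads could gain more of them.

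Most plant genes with introns can give several mature RNAs, because the spliceosome may skip an exon, choose another donor or acceptor site, or leave an intron in place. Intron retention is the form most often described in plants, and choices between acceptor sites a few bases apart give RNAs that differ very little in length. Other isoforms come from other start or polyadenylation sites. Isoforms can code for different proteins, or carry early stop codons that lead to their decay.

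The tissue came from wounds in pears, Pyrus pyrifolia, the sand pear (cultivar "Shuijing"). In the yeast group the wound received 30 µL of Wickerhamomyces anomalus cells in suspension; this yeast is known as an antagonist of moulds that rot stored fruit. In the water group the wound received 30 µL of sterilized water. Both groups were held for 3 days at 28 °C and 95% relative humidity, and both were wounded, so an unwounded state was not measured here. The study asked which genes differ with the yeast treatment. Each group had 1 library, so no difference below has a replicate check, and no p-value can be given. Intervals cover counting error only.

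Depth, estimated from the deposited coverage and FPKM, was about 16753518 read pairs in the yeast library and 19367039 in the water library. At that depth 3 read pairs on a transcript of 1 kilobase would be worth 0.179 FPKM in the yeast library and 0.155 FPKM in the water library. The 310 loci had a median of 557 read pairs in the yeast library and 602 in the water library, with ranges of 97.3 to 14652 and 99.0 to 14166. Their summed FPKM had a median of 17.3 in the yeast library and 15.9 in the water library. The 31 loci under the floor had between 2.04 and 17.1 FPKM in the yeast library and between 2.41 and 5.62 FPKM in the water library, and none was listed at 0. The locus just inside the floor had 5.94 FPKM in the yeast library and 5.18 FPKM in the water library, and the locus just outside it had 6.95 and 4.98 FPKM. The files pair no gene identifier with a name or product, so loci are given by position as deposited, and the genome build is not given in the sources used here.

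The 341 loci lay on all 17 numbered chromosomes and on unplaced scaffolds. Chromosome 15 held 40 of them and chromosome 14 held 6, while 45 lay on scaffolds. As a share of all loci with 1 or more annotated genes on each, these were 0.991% on chromosome 15, 0.343% on chromosome 14 and 0.627% on scaffolds. Chromosome 4 had the largest share, 1.26%. The annotated transcripts of the 310 loci had a median of 10 exons and a median length of 1588.5 bases. At loci with 3 transcripts the medians were 9 exons and 1590 bases, at loci with 2 they were 7 exons and 1230 bases, and at loci with 1 they were 4 exons and 1080 bases. Only 10 of the 310 annotated transcripts had 1 exon. Every annotated transcript of the 310 loci had a length that is a multiple of 3, against 343 of the 1102 assembled transcripts beside them (31.1%). The annotated lengths are therefore coding lengths without untranslated regions.

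The assembled transcripts differed from the annotated ones in their ends as well as in their exons. Of the 1102, 547 had a span that contained the annotated span with more sequence at 1 or both ends, 385 lay over it in part, 105 lay inside it, 38 lay apart from it and 27 had the same start and end. Compared with the annotated transcript of the locus, 510 had more exons, 143 had the same number and 449 had fewer. Of 1412 transcripts, 1177 had 3 or more estimated read pairs in both libraries, 38 in the yeast library only and 54 in the water library only, while 143 were under 3 in both. Of the 1177, 1045 were assembled and 132 annotated. An FPKM above 0 is a weaker demand than 3 read pairs, and more transcripts met it. In both libraries 1302 transcripts were above 0, while 28 were listed at 0 in the yeast library only, 25 in the water library only and 57 in both.

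The annotated transcript carried little of the signal at these loci. Its median share of the summed FPKM was 0.541% in the yeast library and 0.695% in the water library. It was listed at 0 at 73 loci in the yeast library and at 69 in the water library, 57 of them shared, and it was under 1%, zeros included, at 179 and 173 loci. It reached 10% at 34 loci in each library. At loci with 3 transcripts the median was 0.531% in the yeast library and 0.518% in the water library, and at loci with 2 it was 1.76% and 1.68%. The annotated transcripts lack untranslated regions, and the part of this in their shares was not tested. At the 208 loci where an assembled transcript contains the annotated span the median annotated share was 0.373% in the yeast library and 0.542% in the water library. At the other 102 loci it was 0.972% in the yeast library and 1.18% in the water library.

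**Figure D1:**
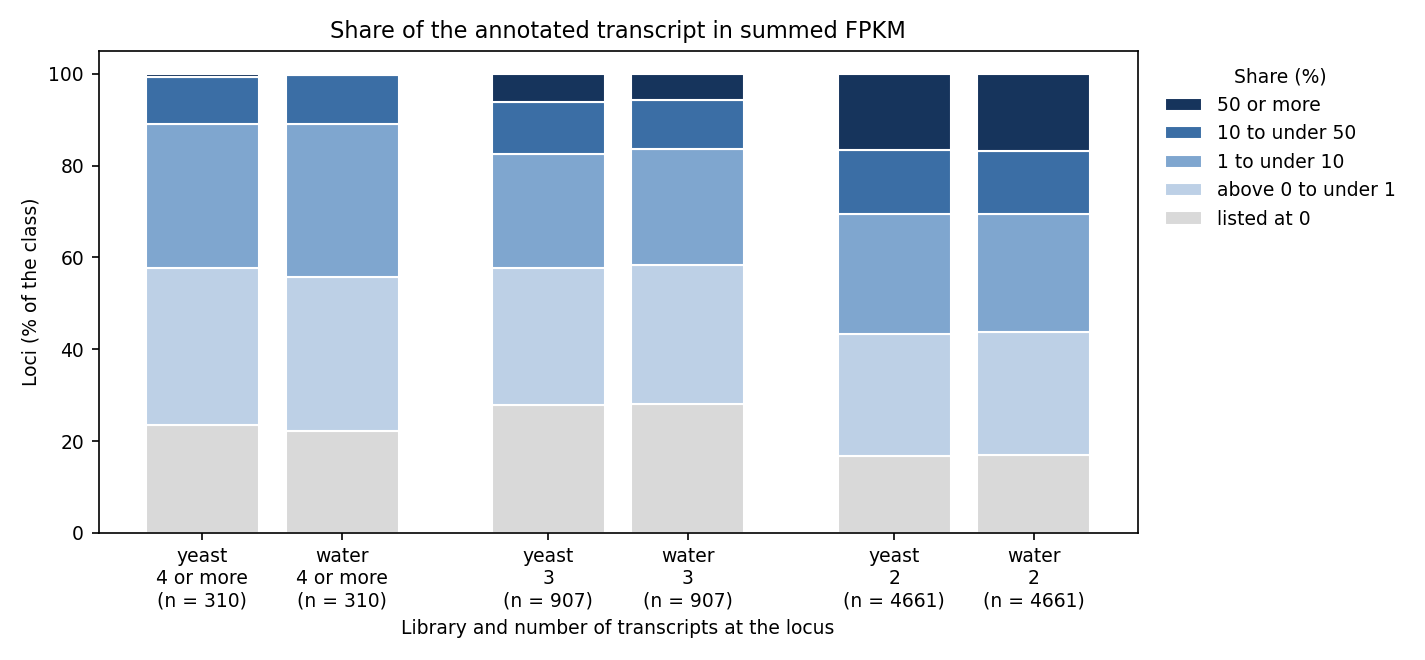
Share of the annotated transcript in the summed FPKM of its locus, as the percentage of loci in each range of shares, for loci with 4 or more, 3 or 2 transcripts, with the yeast library left of the water library. The ranges stack to 100% of the loci of each class, and at loci with 4 or more transcripts a share of 50% or more was seen at 2 loci in the yeast library and 1 in the water library.

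The annotated transcript led its locus, that is, had the highest FPKM, at 8 loci in the yeast library (2.58%) and 5 in the water library (1.61%). At loci with 3 transcripts it led at 72 (7.94%) and 69 (7.61%), and at loci with 2 at 779 (16.7%) and 788 (16.9%). The highest annotated share belonged to a locus on chromosome 15 (40255109 to 40257330, minus strand), whose annotated transcript has a single exon of 1431 bases. It held 96.3% of 49.1 FPKM in the yeast library and 95.6% of 48.4 FPKM in the water library. The 3 assembled transcripts there add a second exon, and each held at most 1.53% in the yeast library and 1.84% in the water library. This locus thus had the same dominant form in both libraries.

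At a locus on chromosome 15 (8588486 to 8594034, plus strand) the annotated transcript also led in both libraries, but without a majority. All 4 transcripts share the same start and end. The annotated one has 7 exons and 2322 bases and held 41.7% in the yeast library and 44.2% in the water library. The assembled forms make a series in which fewer exons go with more sequence: 8 exons and 2396 bases, 7 exons and 3731 bases, and 6 exons and 4592 bases. The 8-exon form held 29.5% in the yeast library and 29.3% in the water library, and the 6-exon form held 16.0% in the yeast library and 10.8% in the water library. The largest move at this locus was 5.20 percentage points, so the order of the forms was nearly the same in both libraries.

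The leading transcript held close to 50% of the FPKM at the typical locus. Its median share was 50.6% in the yeast library, with a range of 17.2 to 96.8%, and 49.4% in the water library, with a range of 20.03 to 98.7%. It held under 50% at 151 loci in the yeast library and 165 in the water library, and 90% or more at 6 and 9 loci. The leader was longer than the annotated coding length at 194 loci in the yeast library and 197 in the water library. Leaders were the longest transcript of their locus at 74 loci in the yeast library and 81 in the water library, and the shortest at 56 and 52. They had the most exons at 116 and 106 loci and the fewest at 101 and 100, ties included, so neither length nor exon number marked the leader. Their median length was 1787.5 bases in each library.

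Isoform diversity was nearly the same in both libraries. It is given as the effective number of transcripts, the exponential of the Shannon entropy of the shares, which is 1 when a single transcript holds all FPKM and equals the number of transcripts when they are all equal. Its median was 2.90 in the yeast library and 2.94 in the water library, and it was higher in the yeast library at 156 loci and lower at 154. A difference of 0.5 or more was seen at 35 loci upward and 39 downward in the yeast library. Across the 310 loci the values of the 2 libraries had a Pearson correlation of 0.87, and the share of the leader one of 0.73. Both libraries were quantified against the same transcripts, whose number per locus bounds the measure, so this is a description only.

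The measure was higher at loci with more transcripts, as is its bound. Medians were 2.59 in the yeast library and 2.70 in the water library at loci with 4 transcripts, and 3.44 and 3.47 at loci with 5. They were 4.36 in the yeast library and 4.23 in the water library at loci with 6, 4.88 and 4.61 at loci with 7, and 5.81 and 6.10 at loci with 8. Counting transcripts with a share of 10% or more, 3 was the most frequent number, at 152 loci in the yeast library and 154 in the water library. A single such transcript was found at 10 loci in the yeast library and 14 in the water library, 5 of them at 14 and 9 loci, and 6 of them at 2 and 1. At most loci, then, no more than 3 transcripts reached that share.

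**Figure D2:**
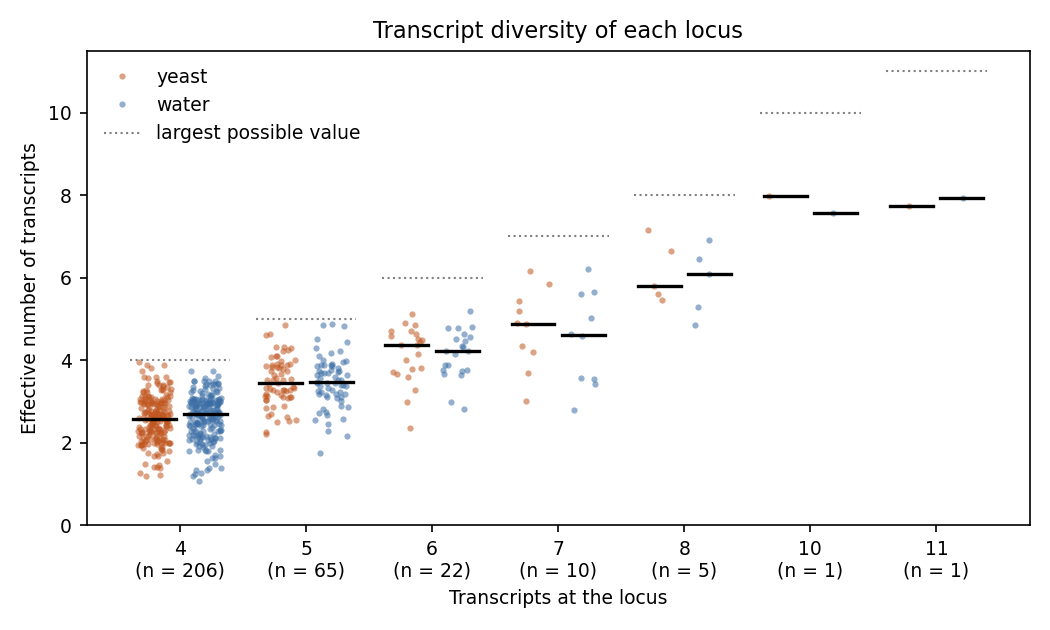
Effective number of transcripts (y axis) of each locus by the number of transcripts it holds (x axis), with 1 point per locus, the yeast library left of the water library, black bars at the medians and dotted lines at the largest possible value. The clouds of the 2 libraries overlap in the classes with 4 to 8 transcripts, while the classes with 10 and 11 hold 1 locus each. Medians were 2.59 in the yeast library and 2.70 in the water library at loci with 4 transcripts.

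The locus with the most transcripts, 11, lies on chromosome 5 (26079482 to 26115437, minus strand) and overlaps another expressed locus. It summed to 24.6 FPKM in the yeast library and 24.2 FPKM in the water library. Its effective number was 7.75 in the yeast library and 7.93 in the water library. The leader, with 5 exons and 2563 bases, held 27.3% in the yeast library and 29.8% in the water library, and the annotated transcript held 0.658% and 0.687%. A 7-exon transcript of 5043 bases came next, with 20.8% in the yeast library and 17.8% in the water library. No share at this locus moved by more than 4.60 points.

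The locus with 10 transcripts, on chromosome 6 (5707273 to 5741399, plus strand), also overlaps another expressed locus. It had the other of the 2 highest effective numbers. This was 7.98 in the yeast library, the highest of all loci there, and 7.56 in the water library. The annotated transcript, with 14 exons, spans nearly the whole locus and held 10.2% in the yeast library and 9.81% in the water library. The assembled transcripts cover separate stretches within or beside it, from a 6-exon form of 1463 bases at the start to an 8-exon form of 2021 bases at the end. The leader differed between libraries by a narrow margin: a 14-exon form of 2039 bases with 17.2% in the yeast library, and an 11-exon form of 1695 bases with 20.03% in the water library. That 14-exon form had 13.2% in the water library, and that 11-exon form had 16.0% in the yeast library.

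Among loci with 8 transcripts, one on chromosome 5 (22247891 to 22258250, plus strand) was more evenly divided in the yeast library, with an effective number of 6.66 against 4.85 in the water library. The difference came from an 8-exon form of 2450 bases that held 19.5% in the yeast library and 47.5% in the water library. The 4 forms that run between 22253490 and 22258250, with 10 to 12 exons, each held between 7.82 and 21.7% in the yeast library and between 3.00 and 8.04% in the water library. The 8-transcript locus on scaffold1136.0 (71537 to 87668, plus strand) had a leader with 13 exons and 4838 bases in both libraries, at 25.9% in the yeast library and 35.1% in the water library. A second 13-exon form, of 4766 bases, held 23.9% in the yeast library and 6.23% in the water library. The 13-exon forms there are similar in span, and joined they held 62.6% in the yeast library and 64.2% in the water library. The totals were close at both loci, with log2 ratios of yeast over water of 0.22 and -0.01.

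Other loci with high effective numbers or many transcripts spanned from a few kilobases to a long stretch, and in none did a form hold a majority. On chromosome 11 (21954423 to 21980990, minus strand), 8 transcripts gave an effective number of 7.15 in the yeast library and 6.91 in the water library. The annotated transcript there is a single exon of 4200 bases with 14.5% in the yeast library and 21.2% in the water library, and a 4-exon form of 2326 bases led in the yeast library with 23.8%, against 7.96% in the water library. On chromosome 8 (10182578 to 10217683, minus strand), 7 transcripts gave 6.17 in the yeast library and 6.21 in the water library, with no move above 3.49 points. On chromosome 12 (9455537 to 9464375, minus strand), the effective number was 5.46 in the yeast library and 6.46 in the water library: a 12-exon form of 2233 bases held 39.4% of 33.1 FPKM in the yeast library and 15.5% of 21.1 FPKM in the water library. On chromosome 5 (22993391 to 23192514, minus strand), 8 transcripts spread over a long span had 13.6 FPKM in the yeast library and 18.0 FPKM in the water library, and the annotated one, a single exon of 183 bases, held 0.0252% in the yeast library and 0.0206% in the water library. All 4 of these loci overlap another expressed locus, and the part of this in their shares was not tested.

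At 3 of the 5 most highly expressed loci both the totals and the shares were close between libraries. A 4-transcript locus on chromosome 13 (5616751 to 5620272, plus strand) summed to 855 FPKM in the yeast library and 831 FPKM in the water library. Its 3 assembled forms have 7 exons each and held 61.2%, 27.3% and 11.5% in the yeast library against 62.0%, 26.7% and 11.3% in the water library. The first and second of them have the same length, 852 bases, and the same ends. On scaffold1176.0 (2127 to 12527, plus strand), a locus that overlaps another expressed one had 389 FPKM in the yeast library and 375 FPKM in the water library. Its shares moved by at most 1.97 points. On chromosome 17 (5690333 to 5695241, minus strand), with 208 FPKM in the yeast library and 201 FPKM in the water library, a 12-exon form of 1364 bases led with 73.4% and 75.1%.

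The other 2 of these loci differed between libraries, in total or in shares. The locus on chromosome 6 (18380781 to 18403046, plus strand), which overlaps another expressed locus, had 594 FPKM in the yeast library and 415 FPKM in the water library. Its read pairs, corrected for depth, were 1.38-fold higher in the yeast library (95% interval 1.35 to 1.42). Its 3 assembled forms, with 1182, 2386 and 703 bases, held 36.9%, 34.9% and 27.9% in the yeast library and 36.9%, 37.4% and 24.8% in the water library, so its total differed while its shares moved by at most 3.05 points. The locus on chromosome 4 (12364434 to 12374222, minus strand) has 7 transcripts and had 233 FPKM in the yeast library and 196 FPKM in the water library. There the annotated 22-exon transcript held 0.0170% in the yeast library and 8.87% in the water library, equal to about 2 and 761 read pairs. A 13-exon form of 1462 bases held 13.1% in the yeast library and 26.5% in the water library, while a 12-exon form of 1436 bases led in both with 40.6% and 28.4%.

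The forms at a locus often differed by a few bases or by a stretch the size of an intron. Taking pairs of transcripts of a locus with the same start and the same end, 417 pairs at 202 loci could be compared by exon number and length. These pairs share transcripts, so they are not independent. In 203 pairs at 130 loci the exon number was equal and the lengths differed, by a median of 27 bases. The most frequent difference was 3 bases, in 25 pairs, followed by 6 bases in 14 pairs and 4 bases in 8. Of the 73 such pairs that differed by 10 bases or fewer, 40 differed by a multiple of 3, and of all 203, 87 did (42.9%). Exon boundaries are not in the tables, so the splice sites behind these differences were not compared.

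In 128 pairs at 76 loci the longer form had fewer exons, as when an intron is kept, and in 63 pairs at 37 loci the longer form had more exons, as when an exon is skipped in the shorter form. The median length difference was 168 bases in the first kind and 117 bases in the second. Among pairs that differ by 1 exon it was 139.5 bases over 102 pairs of the first kind and 99 bases over 49 of the second. In the other 23 pairs the lengths were equal.

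**Figure D3:**
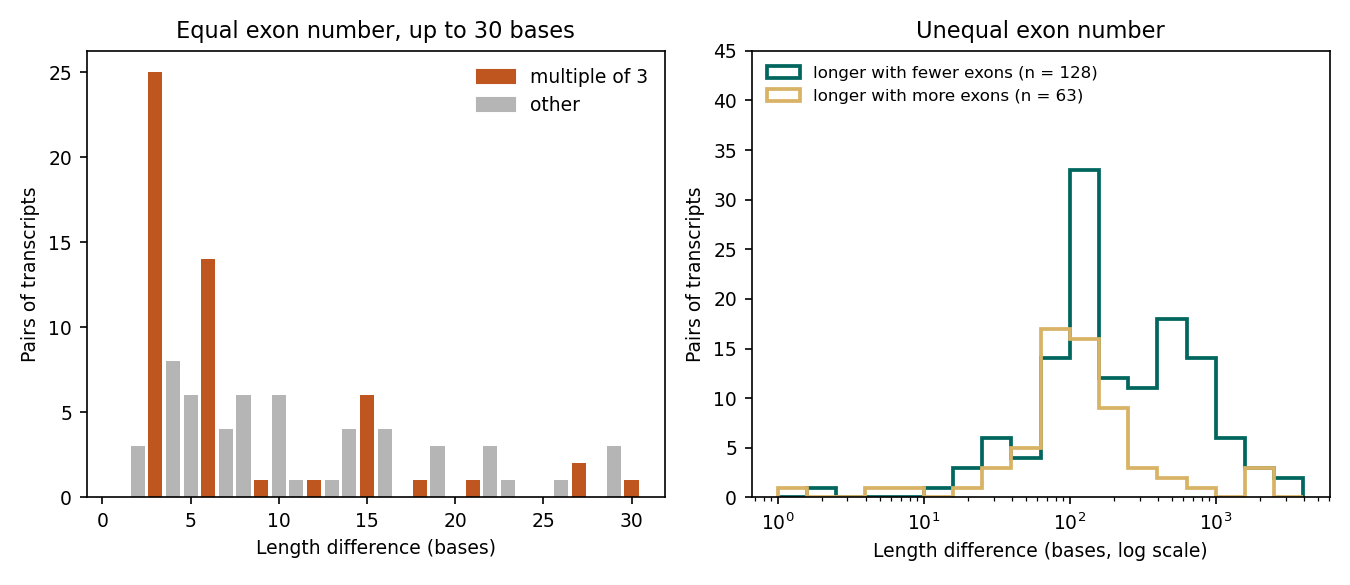
Length differences (x axis, bases) of transcript pairs with the same start and end, counted on the y axis, for pairs with equal exon number up to 30 bases (left; multiples of 3 in orange, others in grey) and for pairs with unequal exon number on a log axis (right). The highest bar on the left is the 25 pairs that differ by 3 bases, and the right panel holds 128 pairs in which the longer form has fewer exons and 63 in which it has more.

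The balance within such pairs varied widely around a median near 50% for pairs with equal exon number. At 5 FPKM or more for the pair in each library, the longer form of 137 such pairs held a median of 48.9% of the pair in the yeast library (quartiles 35.9 and 63.4%) and 48.2% in the water library (quartiles 35.0 and 64.98%). For the 18 pairs that differ by 3 bases the medians were 48.9% in the yeast library and 43.2% in the water library. Where the longer form had fewer exons, it held a median of 54.1% in the yeast library (quartiles 38.6 and 78.7%) and 60.1% in the water library (37.3 and 75.9%) over 70 pairs. In 3 of those pairs its share was higher by 20 points or more in the yeast library and in 10 it was lower. Where the longer form had more exons, the medians over 37 pairs were 45.5% in the yeast library and 48.3% in the water library, with 0 pairs higher and 5 lower by 20 points. At that threshold, pairs with equal exon number went the other way. Of the 137, the longer form was higher by 20 points or more in the yeast library in 13 and lower in 7. Without a threshold, the longer form was higher in the yeast library in 65 of these pairs and lower in 72. The counts were 30 and 40 where it had fewer exons, and 16 and 21 where it had more. In the same order, the median differences, yeast minus water, were -0.27, -1.73 and -1.90 points. For pairs with equal exon number the direction thus depended on the threshold. With 1 library per group, whether another pair of libraries would give these counts was not measured.

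Shares moved between libraries at many of the 310 loci while totals hardly did. The largest move of a locus is the largest absolute difference, yeast minus water, of any of its transcripts' shares, in percentage points. Its median was 10.9 points, with a 10th percentile of 2.52, a 90th of 36.3 and a maximum of 91.5. It reached 20 points at 89 of the 310 loci (28.7%), against 9.38% of the 6490 loci with 2 or more transcripts at the same floor. It reached 50 points at 10 loci (3.23%), against 2.31%, and against 44 (4.85%) of the 907 loci with 3 transcripts. It stayed under 5 points at 81 loci. Loci with 3 transcripts had a median of 6.99 points, with 192 of 907 at 20 points (21.2%), and loci with 2 had a median of 0.703 points, with 238 of 4661 (5.11%).

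The leading transcript was another one in the yeast library than in the water library at 102 loci (32.9%), against 8.95% of the loci with 2 or more transcripts. With a margin of 10 points between the first and second transcript in each library, 33 loci remained (10.6%), against 4.38%. The most similar class, the 907 loci with 3 transcripts, had another leader at 183 (20.2%) and with that margin at 99 (10.9%), so the members do not stand above it there. The 2 leaders shared start and end at 21 of the 102 loci, 1 end at 41 and no end at 40. The leader of the yeast library had more exons than that of the water library at 34 loci, as many at 39 and fewer at 29, and it was longer at 45 and shorter at 57. Leaders of the yeast library were thus not of 1 kind of structure.

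Moves were smaller at loci with more reads. Where the lower library had under 300 read pairs, the median largest move was 12.0 points over 77 loci. It was 11.7 points over 137 loci with 300 to 1000 pairs, 8.70 points over 74 loci with 1000 to 3000, and 4.50 points over 22 loci with 3000 or more. The leader differed at 31, 44, 22 and 5 of these loci (40.3, 32.1, 29.7 and 22.7%), against 21.6, 23.0, 16.6 and 4.44% of loci with 3 transcripts. A move of 20 points was seen at 25 loci under 300 pairs (32.5%), against 24.7% of loci with 3 transcripts and 8.71% of loci with 2 at that depth. With 300 to 1000 pairs it was seen at 39 (28.5%), against 24.3% and 4.02%. Of the loci with 1000 to 3000 pairs, 22 moved by 20 points (29.7%), against 13.5% of loci with 3 transcripts and 3.33% of loci with 2 at that depth. With 3000 or more pairs 3 of 22 did (13.6%), against 13.3% and 2.29%. A transcript was listed at 0 in 1 library and above 0 in the other at 52 of the 310 loci, among them 4 of the 10 with moves of 50 points.

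**Figure D4:**
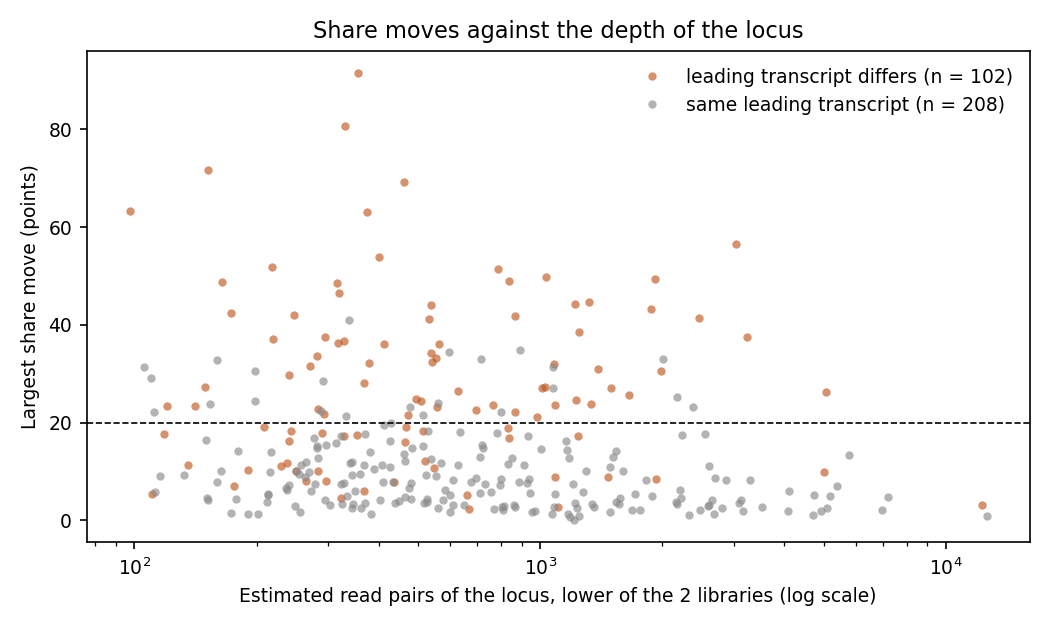
Largest share move of each of the 310 loci (y axis, percentage points) against its estimated read pairs in the lower library (x axis, log scale), with loci whose leading transcript differs between libraries in orange and the others in grey, and a dashed line at 20 points. Of the 89 loci at or above the line, 3 have 3000 or more read pairs.

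Many moves were between forms of equal exon number with nearby ends. At 34 of the 89 loci with moves of 20 points (38.2%), the transcript that gained most and the one that lost most had equal exon numbers and both ends within 100 bases of each other. The lengths of these 34 pairs differed by a median of 20 bases, but by over 100 bases in 6 and by up to 2498. The same rule held at 47 of the 221 loci with smaller moves (21.3%). When such similar forms were joined before the shares were taken, 193 loci had fewer forms, the 1412 transcripts became 1123 forms, and the median largest move was 6.04 points. A move of 20 points was then seen at 53 loci, of which 51 were among the 89, and a move of 50 points at 8, of which 7 were among the 10. Another leading form was then seen at 68 loci, of which 55 were among the 102. The files do not give the exon boundaries, so joined forms may differ inside.

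Among the largest moves that joining left in place was that of the locus on chromosome 15 (37404803 to 37408796, plus strand). Its annotated transcript, with 3 exons and 1440 bases, held 91.6% in the yeast library, with about 322 of 356 read pairs, and 0.0213% in the water library, with 0 of 401. The 3 assembled forms have 4 exons, start upstream of it and differ from each other by at most 29 bases in length. They held 4.97%, 3.47% and 0% in the yeast library, against 47.3%, 37.9% and 14.7% in the water library. The total was 14.6 FPKM in the yeast library and 12.6 FPKM in the water library. A locus on scaffold747.0.1 (1 to 6492, plus strand) moved by 80.6 points. Its 12-exon form of 973 bases was listed at 0 in the yeast library and held 80.6% in the water library, while its 13-exon form of 1237 bases held 74.2% in the yeast library and 0.986% in the water library. These 2 forms end 742 bases apart and nearly replaced each other.

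On chromosome 7 (3876429 to 3886699, plus strand), a 12-exon form of 3710 bases held 14.2% in the yeast library and 83.5% in the water library. A 9-exon form of 2965 bases that ends upstream held 62.8% in the yeast library and 13.4% in the water library. At 8.63 FPKM in the yeast library and 7.23 FPKM in the water library, the total hardly differed. On chromosome 4 (12340012 to 12350087, plus strand), forms with the same start and end changed places: one with 19 exons and 3445 bases held 77.3% in the yeast library and 23.3% in the water library, and one with 18 exons and 3709 bases held 0.134% in the yeast library and 47.3% in the water library. The form with fewer exons is here the longer one. On chromosome 7 (15131040 to 15137235, plus strand), a 7-exon form of 1127 bases over the end of the gene held 0.1504% in the yeast library and 51.6% in the water library, while the annotated 13-exon transcript held 29.1% in the yeast library and 4.35% in the water library.

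On chromosome 12 (58150 to 70462, minus strand), a locus with only about 97.3 read pairs in the yeast library and 99.0 in the water library, a 6-exon form of 837 bases held 66.4% in the yeast library and 3.10% in the water library. Its read pairs were 55 (56.7% of the locus, 95% interval 46.3 to 66.7) in the yeast library and 3 (3.03%, 0.629 to 8.60) in the water library. The locus was picked for its large move, so a comparison of these intervals decides nothing about that move. It also overlaps another expressed locus, and the intervals do not cover how reads were divided among transcripts. On chromosome 3 (20624735 to 20631465, minus strand), a 13-exon form of 2258 bases held 58.7% in the yeast library and 11.04% in the water library. A shorter 13-exon form of 1526 bases there held 0.0634% in the yeast library and 51.9% in the water library. On scaffold1136.0 (50233 to 53030, minus strand), the annotated 3-exon transcript of 1026 bases held 49.4% in the yeast library and 0.610% in the water library. As on chromosome 15, it is the annotated form that is high in the yeast library only.

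Other large moves depended on forms that the joining rule takes as similar. On chromosome 8 (5555810 to 5559635, minus strand), with 154 FPKM in the yeast library and 151 FPKM in the water library, 3 forms of 8 exons differ by 58 bases at 1 end or not in length at all. They held 26.8%, 37.9% and 35.3% in the yeast library against 83.4%, 0.0145% and 16.6% in the water library, and after joining no share moved. On chromosome 15 (40697769 to 40705419, minus strand), 14-exon forms of 2132 and 2125 bases held 68.7% and 5.36% in the yeast library against 5.66% and 54.4% in the water library, and the move of 63.0 points fell to 0.757 points after joining. The move fell to 3.11 points from 49.7 on chromosome 12 (18856103 to 18865701, plus strand), to 1.69 points from 49.1 on chromosome 10 (11324760 to 11328330, minus strand), where the joined 4-exon forms range from 1567 to 2054 bases, and to 9.46 points from 49.5 on chromosome 3 (1118568 to 1144212, minus strand). It fell less on chromosome 15 (6418466 to 6420730, minus strand), to 45.4 points from 71.6, and on chromosome 7 (14779186 to 14784993, plus strand), to 31.1 points from 48.6.

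**Figure D5:**
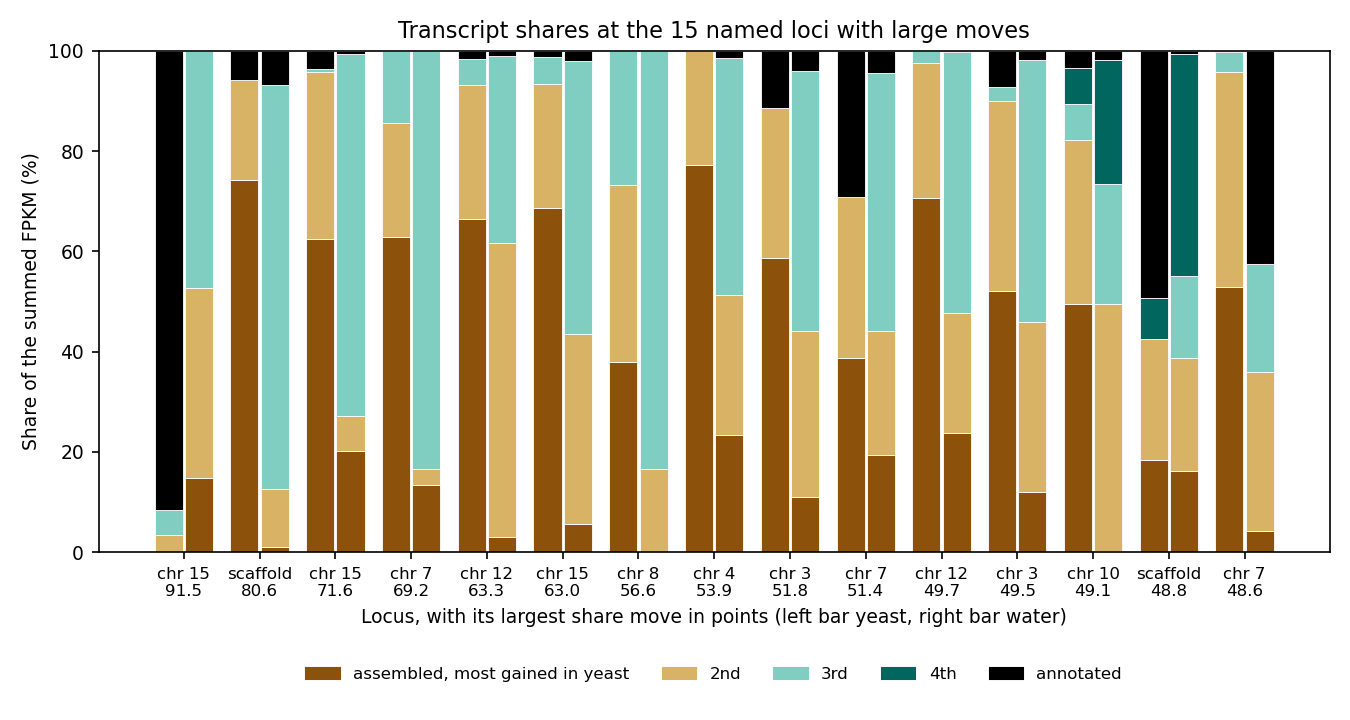
Share of the summed FPKM (y axis, %) of each transcript at 15 loci with large share moves, with the yeast library left of the water library for each locus. The annotated transcript is in black and the assembled ones are coloured from the most gained in yeast (brown) to the most lost (green); at the first locus the black bar is 91.6% in the yeast library and 0.0213% in the water library.

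The annotated transcript was the one that moved most at 5 of the 89 loci. Its share was higher by 10 points or more in the yeast library at 8 of the 310 loci and lower at 3, and its median difference was 0. Of the 907 loci with 3 transcripts it was higher by that much at 37 and lower at 27. Of the 4661 loci with 2 transcripts it was higher at 236 and lower at 246. The locus on chromosome 7 (14779186 to 14784993, plus strand) had the largest of the lower shares: the annotated 19-exon transcript held 0.307% in the yeast library and 42.5% in the water library. Joined with the 19-exon assembled form that starts 87 bases downstream, it held 43.2% in the yeast library and 74.3% in the water library. There a 20-exon form of 2985 bases held 52.8% in the yeast library and 4.21% in the water library.

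Totals of the loci were close between libraries. The median log2 ratio of summed FPKM, yeast over water with 1 FPKM added to each, was 0.05 over the 310 loci and 0.00 over all 14400 loci at the floor. It lay within 0.5 at 297 loci, and at 82 of the 89 with moves of 20 points. It was above 0 at 195 loci and under 0 at 115. No locus was 2-fold higher in the yeast library, against 0.132% of all loci at the floor, and 1 was 2-fold lower, against 0.0764%. Neither count is separable from that background. The floor in each library leaves out loci that are low in 1 library, which limits the differences seen here. With a floor of 1 FPKM, 1 of 341 loci was 2-fold higher and 1 was 2-fold lower.

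The loci in this paragraph and the next were picked for their log2 ratios, so their intervals decide nothing about those differences. The highest log2 ratio, 0.77, was that of MSTRG.15992 on chromosome 5 (17984967 to 17992352, minus strand). It had 13.6 FPKM in the yeast library and 7.55 FPKM in the water library. Its read pairs, corrected for depth, were 1.74-fold higher in the yeast library (95% interval 1.48 to 2.05). Its 4-exon form of 1523 bases led in both libraries, with 38.7% and 47.6%. MSTRG.17494 on chromosome 6 (12330698 to 12333937, minus strand) followed, with 15.5 FPKM in the yeast library and 8.79 FPKM in the water library (log2 ratio 0.75) and read pairs 1.74-fold higher (1.37 to 2.22). Its annotated transcript has 1 exon of 192 bases inside the locus and held 1.57% in the yeast library and 2.42% in the water library. A locus on chromosome 15 (39165071 to 39169575, minus strand) had 11.7 FPKM in the yeast library and 7.11 FPKM in the water library. Its 4 assembled forms all had more FPKM in the yeast library. Its annotated transcript went the other way, with 0.187% in the yeast library and 4.84% in the water library. Shares at this locus moved by at most 7.42 points.

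The lowest was MSTRG.14515 on chromosome 4 (896643 to 900574, minus strand), with 6.06 FPKM in the yeast library and 13.8 FPKM in the water library (log2 ratio -1.07). Most of that difference lay in a 2-exon form of 277 bases with 0.101 FPKM in the yeast library and 6.08 FPKM in the water library, which is 33 read pairs in the water library. The read pairs of the whole locus were 1.46-fold lower in the yeast library after correction for depth (95% interval 1.20 to 1.77), and the authors' gene table gave 4.76 FPKM in the yeast library and 6.96 FPKM in the water library (log2 ratio -0.47), so the 2-fold call rests on the short form. MSTRG.22887 on scaffold424.0 (327321 to 329005, plus strand) had 15.1 FPKM in the yeast library and 25.6 FPKM in the water library (log2 ratio -0.72), with read pairs 1.74-fold lower (1.44 to 2.12). The makeup differed too: of its 2 forms with 6 exons and 644 bases, one held 47.1% in the yeast library and 65.6% in the water library, and the other held 32.8% in the yeast library and was listed at 0 in the water library. Joined, these forms held 79.9% in the yeast library and 65.6% in the water library, and the largest move of the locus was 19.8 points instead of 32.8. The next locus, on chromosome 15 (41131543 to 41163173, plus strand), overlaps another expressed locus. Its summed FPKM was 36.1 in the yeast library and 58.5 in the water library (log2 ratio -0.68), but its read pairs differed by 1.08-fold after the same correction (0.967 to 1.21, lower in the yeast library). There the annotated 13-exon transcript held 46.7% in the yeast library and 13.4% in the water library, and 3-exon forms of 494 and 479 bases held 21.5% and 7.61% in the yeast library and 34.7% and 40.2% in the water library.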

How the data were processed

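Total RNA of 1 yeast-treated and 1 water-treated sample was sequenced. The authors deposited, for each library, a table of transcripts with exon number, length, coverage and FPKM, and a table of genes with FPKM; coverage is the deposited signal of mean reads per base. Per the submitters' processing notes the tools included HISAT2 and HTSeq 0.6.1, whose roles are not stated; the assembler was not given in the sources used here, nor was the genome build. The transcript columns are identical in both tables (57919 transcripts, 42341 annotated and 15578 assembled), so shares are comparable, but each FPKM is an estimate that divides reads among overlapping transcripts.

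Summed FPKM, shares and effective numbers were computed with Python 3.11.15, pandas 2.3.3 and numpy 2.4.6. The arithmetic was tested on simulated counts, which did not model the division of reads among overlapping transcripts. Read pairs were estimated as coverage times length divided by 300, the covered bases of a pair of 150-base reads. Shares of read pairs have exact Clopper-Pearson 95% intervals (scipy 1.17.1), which cover counting error only, not the division of reads. Log2 ratios have a pseudocount of 1 FPKM; a 2-fold call is a log2 ratio of 1 or more. With 1 library per group no test was made. The members, thresholds and comparisons were chosen with earlier results of these data known. Loci described singly are those with the most transcripts (5), the highest mean FPKM (5), the highest effective number (5), the largest moves (10 with every moving transcript above 0 in both libraries, 5 without), the 3 highest and 3 lowest log2 ratios and the 3 highest annotated shares. Lists by gene product were not applied. Of the 310 loci, 65 overlap another expressed locus, and 261 had a gene-table log2 ratio within 0.1 of the summed one.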

Additional observations from a re-analysis of the deposited data

How the results depend on the processing

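With floors of 1 FPKM or none, 1 locus was 2-fold higher in the yeast library. With a floor of 20 FPKM, 125 loci remained: the annotated transcript led 2 in the yeast library and 2 in the water library, the leader differed at 33, 28 moved by 20 points, the median largest move was 7.37 points, and 0 were 2-fold lower. With 6 or more transcripts, 39 loci remained: the annotated transcript led 0 in either library, median effective numbers were 4.59 in the yeast library and 4.51 in the water library, the leader differed at 12, 7 moved by 20 points and 0 were 2-fold lower. Shares of covered bases gave a median annotated share of 0.459% and 9 annotated leaders in the water library. They do not bear on totals. With transcripts above 0 in both libraries only, 2 loci were 2-fold lower, and without loci that overlap another the annotated transcript led 5 in the yeast library. The inverse Simpson index gave 2.58 in the yeast library and 2.66 in the water library. Thresholds of 10 and 50 points gave 165 and 10 loci, and a margin of 10 points gave 33 with another leader. A pseudocount of 5 FPKM and the gene table each gave 0 loci 2-fold lower. Joining forms of equal exon number with both ends within 100 bases, chosen after seeing the data, gave 13 annotated leaders in the yeast library and 11 in the water library, effective numbers of 2.09 and 2.12, 53 loci with moves of 20 points and a median largest move of 6.04 points; here fewer forms are compared. Apart from that, the cause was not tested. The other 81 summary values stayed within 1.5 times (counts) or within the 95% order-statistic interval of the median over loci. No paired analysis was possible because only 1 library was made per treatment; for the same reason none could be left out. Shares of transcripts that overlap depend on how reads were divided, and depth limits loci with few read pairs.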
